A study of Mus musculus with 4 samples.

Results

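Potassium channel genes were taken as every gene whose symbol starts with Kcn in the platform annotation, from probe sets that carry 1 symbol. They numbered 84 of the 18193 genes on the arrays and were measured by 167 probe sets, with up to 6 probe sets for 1 gene. By symbol stem, 22 were voltage-gated pore subunits, 9 silent modifier subunits, 15 inward rectifiers, 12 two-pore channels, 8 calcium- or sodium-activated channels and 15 accessory subunits. The other 3 were the antisense or opposite-strand RNAs Kcnq1ot1, Kcnmb4os1 and Kcnmb4os2.

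RNA was hybridised from 4 sources, with 1 array each: hearts and muscles of d/d mice, and hearts and muscles of f/f mice. The d/d mice were homozygous for a deletion of the gene of MnSOD, the mitochondrial superoxide dismutase, which an MCK-Cre transgene had produced from floxed alleles. The f/f mice carried the floxed alleles on both chromosomes and were the controls, so both genotypes derive from the floxed allele. Whether the f/f mice carried the transgene is not said in the labels. MCK-Cre acts in heart and skeletal muscle fibres, and other cells of these tissues keep the gene. The labels name neither the muscle, the age nor the sex of the mice, nor how many animals a sample pools. With 1 array per group, a difference between d/d and f/f describes a pair of arrays, and no spread between animals can be given.

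Potassium channels carry the outward current that repolarises a muscle cell after an action potential and sets its resting potential. Voltage-gated channels open on depolarisation, inward rectifiers hold the resting potential and link it to receptors or to ATP, and two-pore channels pass a background current. Silent modifier subunits form no channel alone and change the gating of others. Accessory subunits alter trafficking and gating of the pore subunits. The mouse ventricle repolarises mainly through a fast transient outward current, while skeletal muscle repolarises through fast delayed rectifiers and relies on ATP-sensitive and calcium-activated channels during work.

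Values are scaled linear intensities, and differences are given as log2 of d/d over f/f. A signal of 7.51 or less was treated as not distinguishable from background and set to that floor, which 58.0% to 61.1% of probe sets exceeded on an array. Each gene is represented by the probe set with the highest average over the 4 arrays, called its main probe set, unless others are named, and levels are not compared between genes. Sod2, the gene of MnSOD, was lower on 4 of 4 probe sets in d/d heart than in f/f heart, by log2 differences of -0.21 to -1.22. In muscle 3 of 4 were lower, with differences from -0.44 to 0.06. Neither the labels nor the files say whether these probes fall inside the deletion. Heart arrays had all 10 cardiac markers above the floor, and muscle arrays had all 13 skeletal muscle markers above it. Ratios of 3′ to 5′ signal for the actin control, a sign of RNA integrity, were 1.37 in d/d heart, 1.40 in f/f heart, and 1.11 in the muscle of both genotypes. In bulk tissue, fewer cells of a type and less RNA per cell cannot be told apart.

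Of the 84 genes, 69 were above the floor on at least 1 array, 19 on all 4 and 15 on none. Over all 18193 genes, 10538 were above it on all 4. The genes above it on both heart arrays numbered 35, and 34 were above it on both muscle arrays, beside 11668 and 11595 of all genes. On both heart arrays and neither muscle array there were 9 genes, and 9 the other way round. That split was not counted over all genes, so it cannot be called particular to potassium channel genes. Signals were mostly low: 15 genes reached 100 on any array, and 39 of the 69 stayed under 22.5, which is 3 times the floor. Among the bright signals in heart was Kcnip2, which encodes the KChIP2 subunit of the transient outward channel, with 304 in the d/d heart and 622 in the f/f heart. Among those in muscle was Kcna7, a voltage-gated subunit of the Shaker family, with 763 in the d/d muscle and 942 in the f/f muscle.

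**Figure D1:**
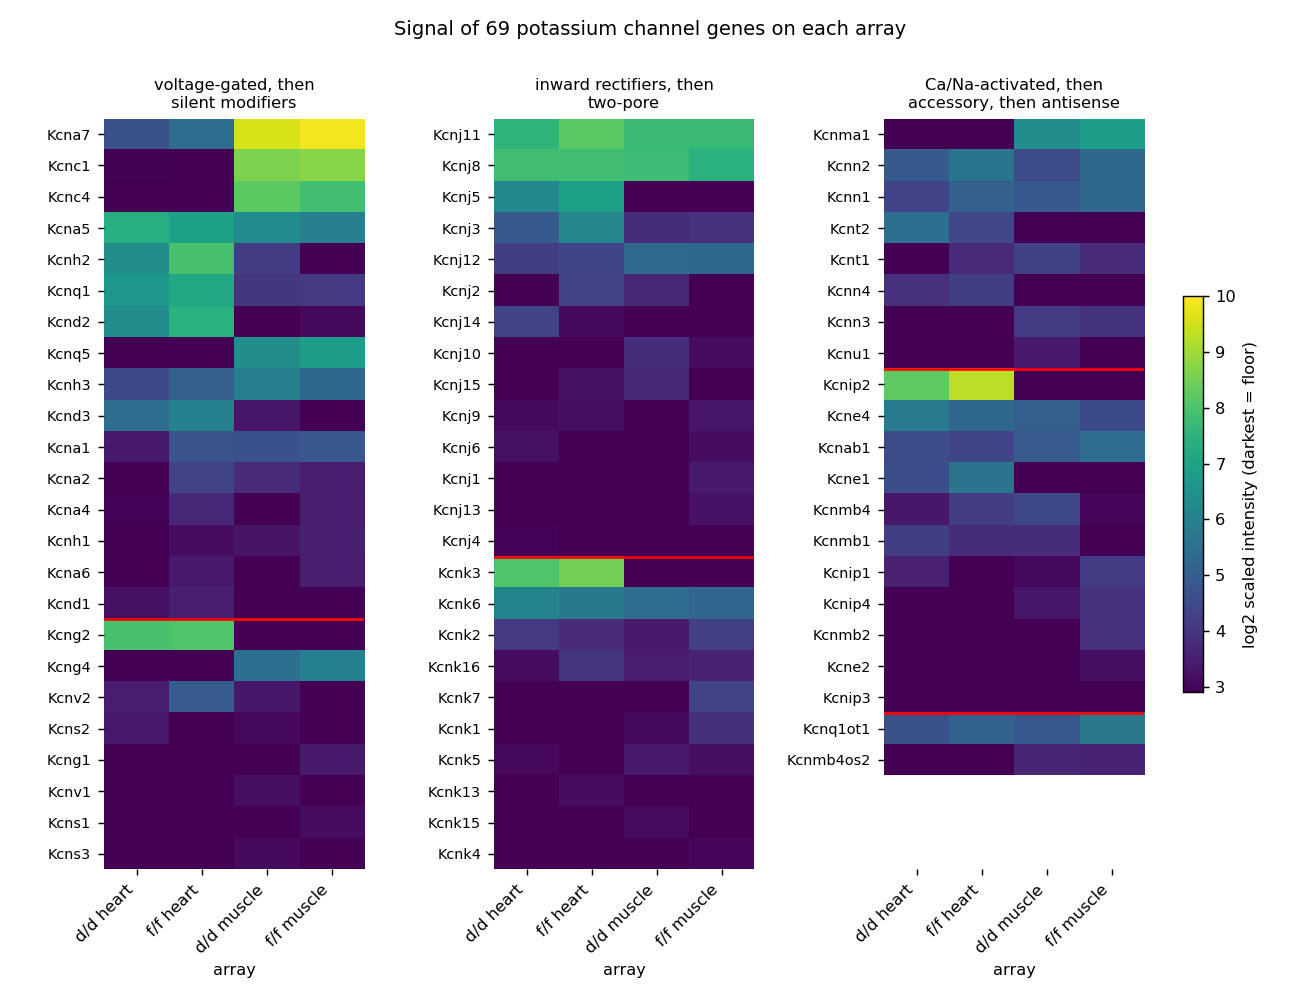
Signal of the 69 potassium channel genes above the floor on at least 1 array. Columns are the 4 arrays, rows are genes ordered by group (red lines) and mean signal, and colour is log2 scaled intensity. Kcna7, Kcnc1 and Kcnc4 were bright in muscle, and Kcnip2, Kcnk3 and Kcng2 in heart.

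In heart, potassium channel genes were more often lower than higher in d/d. Of 48 genes measured, 9 were at least 2-fold lower in d/d heart than in f/f heart (18.75%, against 4.22% of all 13836 genes measured in heart), and 2 were at least 2-fold higher (against 3.94% of all genes). The 9 were Kcnh2, Kcnv2, Kcnj2, Kcna2, Kcna1, Kcnj3, Kcnd2, Kcnip2 and Kcne1, and the 2 were Kcnj14 and Kcnt2. The median log2 difference was -0.38 over the 48 genes, with 34 below 0, and -0.05 over all measured genes. Taking each gene as the median of its probe sets gave -0.16, beside -0.06 over all genes. By group, 4 of 14 measured voltage-gated genes were at least 2-fold lower, as were 2 of 11 inward rectifiers, 2 of 8 accessory genes, 1 of 3 silent modifiers, 0 of 6 two-pore genes and 0 of 5 calcium- or sodium-activated genes. With a floor at the 20th percentile the 2-fold counts evened out, with 14 of 72 higher (19.4%, beside 8.91% of all genes) and 12 lower (16.7%, beside 11.4%), while the median was -0.36, beside -0.05 over all genes. Counted by probe set, 19 of 84 measured potassium channel probe sets were at least 2-fold lower (22.6%), beside 4.54% of all measured probe sets.

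The share differed with signal. Where the brighter heart array read 100 or more, 3 of 10 potassium channel genes were at least 2-fold lower, beside 2.43% of all such genes. Between 22.5 and 100 it was 4 of 14, beside 5.12% of all. Under 22.5 it was 2 of 24, beside 5.52% of all, so the dimmest members lay nearer to the background share. On the heart arrays, 58.0% of all probe sets in d/d and 61.1% in f/f were above the floor. Fibroblast and macrophage markers also differed in d/d heart: 4 of 10 fibroblast markers were higher by 2-fold or more and 0 lower by that much, with summed signals of 11940 in the d/d heart and 6473 in the f/f heart. Of 10 macrophage markers, 4 were higher and 1 lower by 2-fold or more, with sums of 2280 in the d/d heart and 1709 in the f/f heart, and no marker of either list was at the floor in heart. The 10 cardiac markers summed to 43963 in the d/d heart and 44485 in the f/f heart, with 1 at least 2-fold lower. Of them 7 were below 0 and 3 above, with a median of -0.17. The sum includes Nppa, at 6781 in the d/d heart and 3658 in the f/f heart. The part of these other cells in the lower channel signals was not tested.

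**Figure D2:**
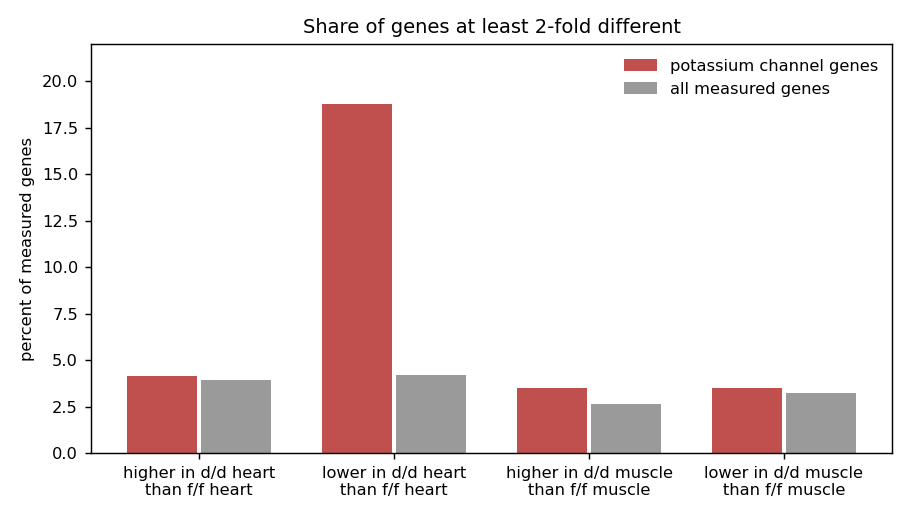
Percent of measured genes at least 2-fold different between d/d and f/f (vertical axis), for potassium channel genes in red and all measured genes in grey. The red bar for lower in d/d heart stands at 18.75% beside 4.22%, and the red bars in muscle stand at 3.51% each.

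The transient outward channel of the mouse ventricle is built from Kcnd2 and Kcnd3 pore subunits with Kcnip2 as accessory subunit, and Kcna4 forms a slower component. Kcnip2 read 304 in the d/d heart and 622 in the f/f heart, 2.05-fold lower, and its second measured probe set read 158 in the d/d heart and 317 in the f/f heart, a log2 difference of -1.0002. Its remaining probe set was at the floor on both heart arrays. Kcnd2 read 84.0 in the d/d heart and 172 in the f/f heart, 2.05-fold lower, on its main probe set. Other probe sets of Kcnd2 read 55.4 in the d/d heart and 132 in the f/f heart, and 32.8 in the d/d heart and 76.8 in the f/f heart, log2 differences of -1.25 and -1.23. All measured probe sets of this pair of genes were thus at least 2-fold lower. Kcnd3 read 44.3 in the d/d heart and 63.6 in the f/f heart, a log2 difference of -0.52, short of 2-fold. Kcna4 was near the floor, at 7.95 in the d/d heart and 13.1 in the f/f heart, and its probe sets disagreed in direction. Kcnd1, a further pore gene of the same stem, read 9.37 in the d/d heart and 11.4 in the f/f heart.

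The promoters of Kcnip2 and Kcnd2 are shown because both genes of the transient outward channel were lower in d/d heart, and that of Kcnh2 because it had the most negative difference among the 7 lower genes measured above the floor on both heart arrays. Each is the 250 bases before the start in RefSeq on GRCm38.p6, read 5′ to 3′ on the gene's strand, with every CG dinucleotide in capitals. The Kcnip2 stretch is chr19:45816064-45816313 on the minus strand, that of Kcnd2 chr6:21215096-21215345 on the plus strand and that of Kcnh2 chr5:24329592-24329841 on the minus strand.
Kcnip2: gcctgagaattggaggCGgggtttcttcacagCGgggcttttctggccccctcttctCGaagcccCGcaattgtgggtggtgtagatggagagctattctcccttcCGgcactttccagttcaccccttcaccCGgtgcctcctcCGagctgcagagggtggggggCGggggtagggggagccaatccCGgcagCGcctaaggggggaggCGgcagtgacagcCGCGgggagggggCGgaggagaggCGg
Kcnd2: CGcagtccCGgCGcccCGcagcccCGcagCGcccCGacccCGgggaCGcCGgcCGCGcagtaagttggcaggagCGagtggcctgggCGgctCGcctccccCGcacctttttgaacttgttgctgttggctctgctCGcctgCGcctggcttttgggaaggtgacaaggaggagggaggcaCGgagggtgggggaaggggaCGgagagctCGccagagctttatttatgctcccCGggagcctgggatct
Kcnh2: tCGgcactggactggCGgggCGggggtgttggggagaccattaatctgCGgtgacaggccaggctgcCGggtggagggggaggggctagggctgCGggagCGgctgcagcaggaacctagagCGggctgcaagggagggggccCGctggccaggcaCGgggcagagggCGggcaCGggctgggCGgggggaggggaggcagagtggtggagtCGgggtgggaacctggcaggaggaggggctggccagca
These stretches hold 15, 22 and 14 CG dinucleotides in the order printed, and their G and C content is 66.8%, 68.8% and 73.6%. Of the 9 genes lower in d/d heart, 6 had an entry in the promoter table, with a median of 14.5 CG dinucleotides (range 7 to 22), beside a median of 7 over 89 promoters of 64 potassium channel genes and of 6 over all 32851 promoters. None of the 6 held, on either strand, the TATA box spelled TATAAA, which 12.4% of all promoters hold, or the GATA factor core spelled AGATAA, which 9.99% hold. The Iroquois factor site ACANNTGT was likewise in none of the 6, beside 6.31% of all promoters. Each of these was in 3.37% of the 89 potassium channel promoters. The antioxidant response element TGACNNNGC was also in none, beside 17.98% of the potassium channel promoters and 10.2% of all promoters. With 6 promoters and shares this low, the absence of a pattern cannot be read as a depletion. The 4 patterns were searched separately, and a search for letters says nothing about binding of a factor.

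Of the delayed rectifier genes of the heart, Kcnh2 and Kcne1 were at least 2-fold lower and Kcnq1 and Kcna5 were not past 2-fold. Kcnh2, which encodes the ERG pore of the rapid delayed rectifier, read 86.0 in the d/d heart and 247 in the f/f heart, 2.87-fold lower on its only probe set. Kcne1, the accessory subunit of the slow delayed rectifier, read 24.7 in the d/d heart and 49.8 in the f/f heart, 2.02-fold lower, and 8.40 in the d/d heart and 24.1 in the f/f heart on its other probe set. With quantile normalization the Kcne1 difference was -0.98, just short of 2-fold. Its pore partner Kcnq1 read 103 in the d/d heart and 144 in the f/f heart, a log2 difference of -0.48. Kcna5, the pore of the ultrarapid delayed rectifier, went the other way, at 167 in the d/d heart and 123 in the f/f heart, a log2 difference of 0.44. Between probe sets of 1 gene on the same heart arrays such differences had an SD of 0.388 on the log2 scale, over 5375 genes, which is technical and holds no spread between animals.

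Among inward rectifiers, Kcnj3 and Kcnj5 form the acetylcholine-gated channel that slows the atria and the sinus node. Kcnj3 read 30.3 in the d/d heart and 73.7 in the f/f heart, 2.43-fold lower. Its other measured probe sets gave log2 differences of -1.21 and -0.82, and the last of these represents the gene without scaling (-0.87) or with a floor at the 60th percentile (-0.82). Kcnj5 read 74.8 in the d/d heart and 122 in the f/f heart, a log2 difference of -0.71, and -0.94 on its other probe set. Kcnj3 is also an atrial marker. Of the 10 atrial markers, 2 were at least 2-fold lower in d/d heart (Kcnj3 and Bmp10) and 0 higher, with 6 below 0, a median of -0.43 and none at the floor. They summed to 10162 in the d/d heart and 8447 in the f/f heart, but without Nppa, the largest, the other 9 summed to 3380 in the d/d heart and 4788 in the f/f heart. The part of the amount of atrium in each sample was not tested. Leaving out Kcnj3 and Kcna5, the channel genes on the atrial list, takes Kcnj3 from the 9 lower genes and leaves 8, a count that follows from the omission itself.

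Kcnj2, the main pore of the resting inward rectifier current, was at the floor in the d/d heart and read 20.5 in the f/f heart, so it was at least 2.73-fold lower. Kcnj12, a second pore of that current, read 18.7 in the d/d heart and 21.2 in the f/f heart. Kcnj4 read 7.86 in d/d heart, barely above the floor, and was at the floor in f/f heart. Kcnj14, a further relative, read 20.6 in the d/d heart and 8.50 in the f/f heart, 2.42-fold higher. Kcnj11 and Kcnj8 are the pores of ATP-sensitive channels, which close when ATP is high. Kcnj11 read 188 in the d/d heart and 289 in the f/f heart, a log2 difference of -0.62, and -0.93 on its other probe set. Kcnj8, used mainly in smooth muscle and pericytes, read 225 in the d/d heart and 227 in the f/f heart.

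The remaining lower genes were dim. With a floor at the 60th percentile the lower genes Kcnj2, Kcna2, Kcna1, Kcnv2 and Kcnj3 each fell short of 2-fold, as did the higher gene Kcnj14. Kcnv2, a silent modifier, read 11.2 in the d/d heart and 31.4 in the f/f heart, 2.80-fold lower on its only probe set. Kcna1, a Shaker subunit best known in axons, read 10.8 in the d/d heart and 26.5 in the f/f heart, 2.46-fold lower, and both of its other measured probe sets were at least 2-fold lower. Kcna2, its usual partner in axons, was at the floor in the d/d heart and read 20.2 in the f/f heart, at least 2.69-fold lower. Its other measured probe sets were within 1.1-fold, at log2 differences of 0.04 and, against the floor, -0.10, so the call for Kcna2 rests on 1 probe set. Of 11 nerve and glia markers, 7 were measured in heart, 2 of them 2-fold higher or more in d/d and 0 lower, and the 11 summed to 914 in the d/d heart and 513 in the f/f heart. The higher sum came with Pmp22, Uchl1 and Ncam1 (log2 differences of 0.81, 1.90 and 1.70), while the myelin and glia markers Mbp and Sox10 were at -0.91 and -0.48. Of these markers 4, Prph, Nefl, Nefm and Snap25, were at the floor on both heart arrays.

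Across the 11 heart genes past 2-fold, 6 had other measured probe sets, 10 in all. Of these, 9 lay on the same side as the main probe set and 7 were past 2-fold. The exception was a probe set of Kcna2.

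**Figure D3:**
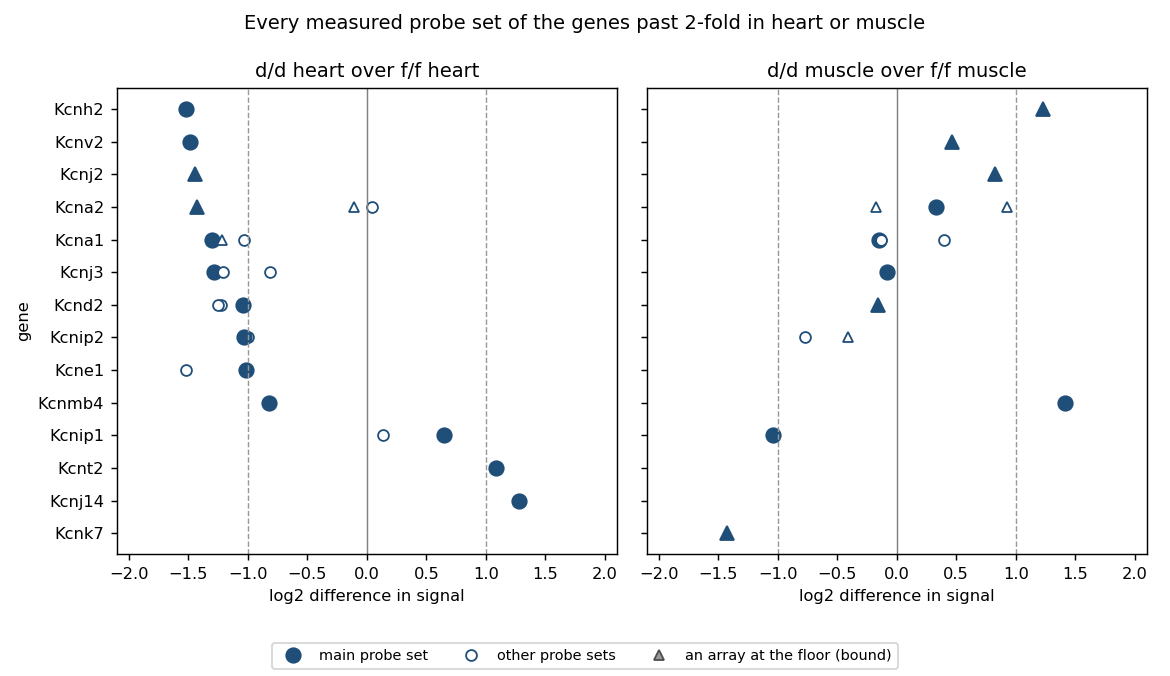
Log2 difference of d/d over f/f (horizontal axis) for each measured probe set of the 14 genes past 2-fold in heart or muscle, heart in the left panel and muscle in the right. Filled symbols are the main probe set, open symbols the others, triangles have an array at the floor, and dashed lines mark 2-fold. Kcnd2, Kcne1 and Kcna1 had all their measured heart probe sets at or past 2-fold lower, while Kcna2 did not.

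Higher in d/d heart were Kcnj14, above, and Kcnt2, a sodium-activated channel, which read 45.2 in the d/d heart and 21.3 in the f/f heart, 2.12-fold higher on its only probe set. Small-conductance calcium-activated channels shape late repolarisation, chiefly in atria. Kcnn2 read 30.5 in the d/d heart and 50.9 in the f/f heart, and Kcnn1 read 20.1 in the d/d heart and 34.1 in the f/f heart, log2 differences of -0.74 and -0.77. The second probe set of Kcnn1 gave -1.34. Kcnn4, the intermediate-conductance channel of blood and vascular cells, read 15.1 in the d/d heart and 18.8 in the f/f heart. Kcnma1, the large-conductance channel, and Kcnn3 were at the floor on both heart arrays, as were the accessory genes Kcne3 and Kcnab2. Kcnmb1, the large-conductance accessory subunit of smooth muscle, read 18.6 in the d/d heart and 14.0 in the f/f heart, and its other probe set went the other way. Kcne4, an accessory subunit that inhibits several voltage-gated channels, read 58.1 in the d/d heart and 39.0 in the f/f heart, a log2 difference of 0.58, with 0.54 in muscle. Kcnab1, an accessory subunit of Shaker channels, read 23.4 in the d/d heart and 21.1 in the f/f heart.

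No two-pore gene was past 2-fold in heart on its main probe set. Kcnk3, the acid-sensitive background channel of the heart, read 264 in the d/d heart and 358 in the f/f heart, a log2 difference of -0.44. Its dimmer probe sets were lower still, at 37.9 in the d/d heart and 111 in the f/f heart, and at 39.2 in the d/d heart and 73.4 in the f/f heart, differences of -1.56 and -0.90. Its difference therefore depends on the probe set. Kcnk6 read 67.2 in the d/d heart and 54.5 in the f/f heart, and Kcnk2, the mechanosensitive channel, read 17.2 in the d/d heart and 13.7 in the f/f heart. Kcng2, a silent modifier, read 243 in the d/d heart and 265 in the f/f heart, a log2 difference of -0.12.

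In muscle few potassium channel genes differed by 2-fold between d/d and f/f. Of 57 genes measured, 2 were higher in d/d muscle by 2-fold or more (3.51%, against 2.64% of all 14256 genes measured in muscle) and 2 lower by that much (3.51%, against 3.25%), close to the background shares. The median log2 difference was -0.11, beside -0.003 over all measured genes, and turned to 0.08 with the median over probe sets. The 4 genes were all under 22.5 on both muscle arrays. Kcnmb4, an accessory subunit of the large-conductance channel, read 21.98 in the d/d muscle and 8.25 in the f/f muscle, 2.66-fold higher. Kcnh2 read 17.6 in d/d muscle and was at the floor in f/f muscle, at least 2.34-fold higher, the opposite direction from heart. Kcnk7 was at the floor in the d/d muscle and read 20.2 in the f/f muscle, at least 2.68-fold lower. Kcnip1, a relative of Kcnip2, read 8.55 in the d/d muscle and 17.5 in the f/f muscle, 2.05-fold lower. None of the 4 had another measured probe set in muscle. Without scaling the Kcnh2 difference was 0.94, and with a floor at the 60th percentile those of Kcnmb4 and Kcnk7 were 0.21 and -0.09. Kcnj2, low in d/d heart, read 13.3 in d/d muscle and was at the floor in f/f muscle. Of 10 fibroblast markers 3 were lower by 2-fold or more in d/d muscle, with sums of 4622 in the d/d muscle and 7307 in the f/f muscle and Tcf21 at the floor in d/d muscle. Of 8 cardiac markers measured in muscle 7 were below 0 and 5 at least 2-fold lower, with Myl7 and Ryr2 at the floor on both arrays. The 10 markers summed to 2569 in the d/d muscle and 3010 in the f/f muscle, and without Actc1, the largest, the other 9 summed to 328 in the d/d muscle and 745 in the f/f muscle. Their part in these 4 differences was not tested.

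The bright channel genes of muscle were not past 2-fold on their main probe sets, though dimmer probe sets of Kcnma1 and Kcnq5 were. Kcna7 read 763 in the d/d muscle and 942 in the f/f muscle, a log2 difference of -0.30. The fast delayed rectifier gene Kcnc1 read 386 in the d/d muscle and 430 in the f/f muscle, a difference of -0.15, with -0.16 and -0.02 on its other measured probe sets. Kcnc4, of the same stem, read 296 in the d/d muscle and 229 in the f/f muscle, a difference of 0.37, and 0.81 on its other probe set. Kcnj11 read 206 in the d/d muscle and 208 in the f/f muscle, and Kcnj8 read 218 in the d/d muscle and 173 in the f/f muscle. Kcnma1 read 84.4 in the d/d muscle and 117 in the f/f muscle, a difference of -0.48, while dimmer probe sets gave -1.32, -1.34 and at least -0.55 against the floor. Kcnq5, a pore gene of the slow M-type current, read 84.7 in the d/d muscle and 115 in the f/f muscle, with -0.57 and a bound of -1.70 on its other probe sets. Kcng4, a silent modifier, read 45.3 in the d/d muscle and 62.5 in the f/f muscle, and Kcnh3, a pore gene of the ether-a-go-go family, 61.0 in the d/d muscle and 39.4 in the f/f muscle. Kcnk1, a two-pore gene, read 8.42 in the d/d muscle and 14.5 in the f/f muscle. The SD between probe sets of 1 gene was 0.3996 in muscle, over 5207 genes.

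The genotype difference averaged over the tissues was fitted with limma, with tissue as a block, over 13497 genes. At a Benjamini-Hochberg adjusted p under 0.05, 0 genes of all were called (0%), and 0 of the 54 potassium channel genes in the fit. At an unadjusted limma p under 0.05 there were 570 of the 13497 genes. Among the 54 potassium channel genes there were 2, Kcna4 and Kcnn2, a share no larger than that over all genes. Kcnn2 had nearly the same difference in both tissues. It read 23.3 in the d/d muscle and 39.4 in the f/f muscle, a log2 difference of -0.76 beside -0.74 in heart, and its averaged difference of -0.75 (SE 0.26, limma) had an adjusted p of 0.9998. Kcna4 had differences of -0.72 in heart and, against the floor in d/d muscle, -0.59 in muscle. The fit has 1 residual degree of freedom and counts a difference between tissues as error. It therefore favours genes with like differences in both tissues, so the likeness for Kcnn2 follows in part from that selection.

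Between the tissues, 19 potassium channel genes were called. In the same fit, with the 2 heart arrays set against the 2 muscle arrays and genotype as a block, 12 of 54 potassium channel genes were called higher in heart (22.2%, against 7.97% of all genes) and 7 lower (13.0%, against 5.66%). Higher in heart were Kcnip2, Kcnk3, Kcng2, Kcnd2, Kcnj5, Kcnh2, Kcnq1, Kcnd3, Kcne1, Kcnt2, Kcnj3 and Kcnn4. Lower in heart, and so higher in muscle, were Kcnc1, Kcnc4, Kcna7, Kcnma1, Kcnq5, Kcng4 and Kcnn3. For 12 of the 19 both arrays of the dimmer tissue were at the floor, and for 4 more 1 of them was, so those differences are lower bounds for the main probe set. Such genes entered the fit through the brighter tissue, and arrays set to the same floor add no spread to the error, so their SE and p are too small. With all 4 arrays required above the floor, 3 of 19 were called higher (15.8%, against 10.8% of all genes) and 2 lower (10.5%, against 7.37%). For genes called higher, the excess over all genes was also smaller without scaling, at 30.2% against 21.1%, while the lower genes stood at 11.3% against 3.74%. With an intensity trend the shares were 22.2% against 13.1% higher and 11.1% against 9.94% lower. With a floor at the 60th percentile they were 37.9% against 15.4% higher and 24.1% against 10.6% lower. With a floor at the 20th percentile 0 genes were called.

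Kcnip2 was at least 57.9-fold higher in heart than in muscle (log2 difference 5.86) on its main probe set, which was at the floor on both muscle arrays. Those arrays added no spread to the error, so its SE (0.34) and limma adjusted p (0.0008) are too small. A second Kcnip2 probe set was above the floor in muscle, at 8.79 in d/d and 15.01 in f/f, and was 18.02-fold higher in heart than in muscle in d/d and 21.1-fold in f/f, so the bound holds for the main probe set alone. Kcnk3 was at least 40.9-fold higher and Kcng2 at least 33.8-fold higher, with both muscle arrays at the floor. Kcnd2 was at least 15.2-fold higher, Kcnj5 at least 12.7-fold and Kcnh2 at least 12.7-fold. Kcnh2 had the widest error of the 19, with a log2 difference of 3.66 and an SE of 0.64, and its genotype difference ran in opposite directions in the tissues. Kcnq1 was above the floor on all 4 arrays and was 7.24-fold higher in heart (log2 difference 2.86, SE 0.27, limma adjusted p = 0.0039), at 103 and 144 in the hearts and 16.4 and 17.4 in the muscles.

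On the muscle side, Kcnc1 was at least 53.3-fold higher in muscle (log2 difference of heart over muscle -5.74, SE 0.26, limma adjusted p = 0.0005). It read 7.78 in the d/d heart, barely above the floor, and was at the floor in the f/f heart. The heart arrays thus added almost no spread to the error, and this SE and p are too small. Kcnc4 was at least 34.6-fold higher in muscle, Kcnma1 at least 13.2-fold, Kcnq5 at least 13.2-fold and Kcng4 at least 7.08-fold. Kcna7 was measured on all 4 arrays and was 25.4-fold higher in muscle, at 25.4 in the d/d heart and 44.0 in the f/f heart beside its muscle values above. Skeletal muscle markers left a trace on the heart arrays: 9 of 13 were at the floor in d/d heart and 4 of 13 in f/f heart, with Atp2a1 at 3.27 in the d/d heart and 24.1 in the f/f heart. Their part in the heart signal of Kcna7 and Kcna1 was not tested.

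**Figure D4:**
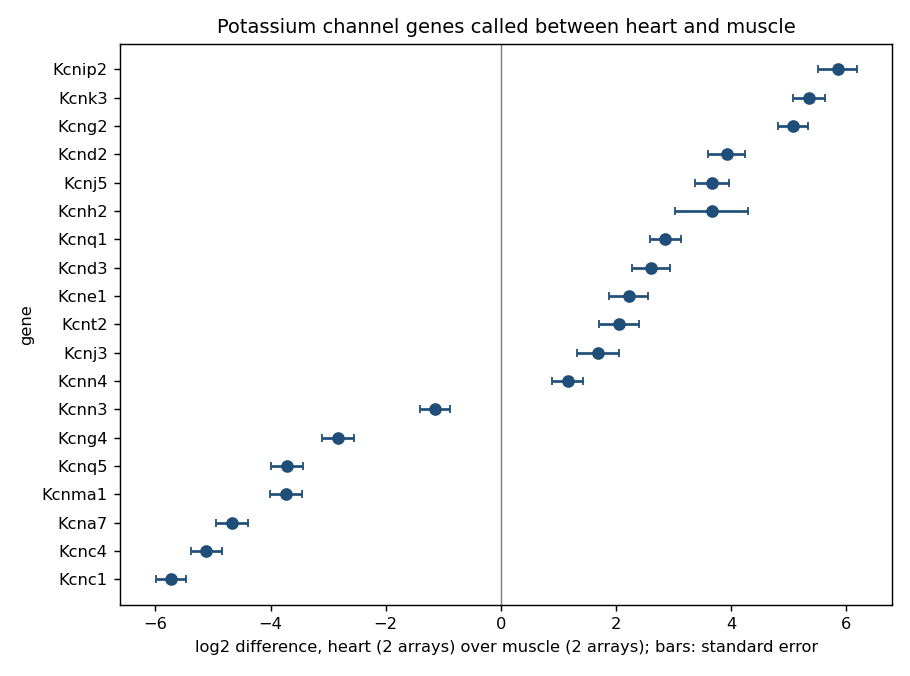
Log2 difference of heart over muscle (horizontal axis) with standard error from limma for the 19 potassium channel genes called between the tissues, 2 arrays per tissue. The 12 genes right of 0 run from Kcnn4 to Kcnip2 at 5.86, and the 7 left of 0 from Kcnn3 to Kcnc1 at -5.74. Where both arrays of a tissue lay at the floor, the standard error is too small.

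The ATP-sensitive pores Kcnj11 and Kcnj8 were not called between tissues and read 173 to 289 on the 4 arrays. Kcna5 read higher in heart by 1.03 on the log2 scale (SE 0.26, limma adjusted p = 0.056) and Kcnj12 lower by a log2 difference of -1.01 (SE 0.27, limma adjusted p = 0.062), neither past the threshold.

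Genes that work with these channels were looked at through lists. Of 13 channel partners, 11 were on the arrays and 9 were measured in heart, with a median log2 difference of -0.45, beside -0.05 over all genes. Of the 9, Lgi1 was at least 2-fold lower, against the floor, and 0 were higher, beside 4.22% lower and 3.94% higher of all genes. Abcc9, the sulfonylurea receptor that pairs with Kcnj11 and Kcnj8, read 938 in the d/d heart and 1638 in the f/f heart, a difference of -0.80. The muscle values were 1440 for d/d and 1330 for f/f, a difference of 0.12. Of 30 other ion transport genes of excitation, 23 were on the arrays and 19 were measured in heart, with a median of -0.29, 1 at least 2-fold lower (Trpm4) and 1 higher (Cacnb1). The L-type calcium channel genes Cacna1c and Cacnb2 had differences of -0.57 and -0.83 in heart. Of 21 transcription factors known to control cardiac channel genes, 19 were on the arrays and 18 were measured in heart, with a median of -0.31, 1 at least 2-fold lower (Hey2) and 0 higher. Irx5, which represses Kcnd2 in the mouse ventricle, read 61.4 in the d/d heart and 76.4 in the f/f heart. In muscle the 3 lists, in the same order, had medians of -0.002, 0.03 and 0.01, with Hcn2 and Tbx5 higher and Tbx18 lower by 2-fold or more in d/d.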

How the data were processed

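One deposited table was used, with 1 linear intensity per probe set and array as the authors deposited it. The scanning software, background step and scaling behind them are, for this table, not given in the labels or the table's header. Control probe sets were left out, the 4 arrays were scaled linearly to a common 2% trimmed mean (their average), signals under the mean 40th percentile were set to that floor (7.51), and log2 was taken. Gene names came from the array's annotation table: 34945 of 45037 had 1 symbol. Of these, 34741 were found by Entrez ID in a RefSeq gene table (GRCm38.p6), with 0 symbols updated. For each gene the probe set of highest average log2 signal was taken. It was called at 2-fold or more with the higher array above the floor, and a fold against a signal at the floor is a lower bound. With 1 array per group, no p-value was given for heart or muscle alone.

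The additive fit (lmFit and eBayes, limma 3.58.1, R 4.3.3) took genes that exceeded the floor on 2 or more arrays and adjusted p-values over all of them (Benjamini-Hochberg), and was tested on simulated data. Python 3.11.15 was used for the rest. Named were the genes past 2-fold in either tissue, the 10 brightest in each, those called between tissues, and 33 of 35 listed genes of repolarisation that were on the arrays. The Kcn genes, lists and alternatives were chosen with earlier results of these data known. Alternatives were the scaling, the floor, the probe set that represents a gene, the filter on dim genes and an intensity trend. A filter at 3 times the floor and the omission of atrial markers were added after seeing the data. No depth applies to arrays, so their number limits the precision.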

Additional observations from a re-analysis of the deposited data

Results flagged for a closer look

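Kcnh2 was at least 2-fold different in both tissues and in opposite directions. Its log2 difference of d/d over f/f was -1.52 in heart and 1.23 in muscle, the second against an f/f muscle signal at the floor. Each value rests on 1 pair of arrays and 1 probe set, and the difference between the tissues was not tested, since the fit has no degrees of freedom for an interaction.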

How the results depend on the processing

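The count of potassium channel genes at least 2-fold lower in d/d heart was 9 of 48. It stayed within 1.5 times this (7 to 12) under the other scalings, the lower floor and the other probe set rules. The same held for the filter at 3 times the floor and the omission of atrial markers. At the lower floor, however, the 12 genes were out of 72 measured (16.7%), beside 11.4% of all genes. The main setting had 18.75% beside 4.22%, so the excess over all genes shrank although the count held. A floor at the 60th percentile gave 4 of 28 lower in d/d heart, beside 2.37% of all genes. The genes higher in d/d heart numbered 1 with that floor, 1 with the filter at 3 times the floor, and 14 of 72 (19.4%, beside 8.91% of all genes) with the floor at the 20th percentile. In muscle the higher genes numbered 1 without scaling, 0 with the 60th percentile floor, 0 with the filter at 3 times the floor and 12 with the 20th percentile floor (15.8%, beside 9.85%). The lower genes numbered 4 with quantile normalization, 0 with the 60th percentile floor, 0 with the filter and 13 with the 20th percentile floor (17.1%, beside 10.5%). The median ranged from -0.16 to -0.49 in heart and from -0.16 to 0.08 in muscle over 6 alternative settings.

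Between heart and muscle, 12 genes called higher and 7 lower became 0 and 0 with the 20th percentile floor, where limma called 0 of all 16606 genes. At an unadjusted limma p under 0.05 there were 31 of 75 potassium channel genes with that floor, beside 3491 of the 16606. The 12 and 7 became 3 and 2 when a gene had to be above the floor on all 4 arrays, which left 19 of the 54 genes in the fit. The averaged genotype difference called 0 potassium channel genes under every setting run, and 1 gene of all with an intensity trend. Of 15 differences past 2-fold of single genes, 5 stayed past it under every setting that gave a value. These were Kcnd2, Kcnh2, Kcnip2 and Kcnt2 in heart and Kcnip1 in muscle. Each of these heart genes had a value under 6 alternative settings, but Kcnip1 in muscle under only 4. Kcnip1 gave no value with the higher floor or with the median over probe sets, and its difference without scaling is a bound. Its place among these genes therefore rests on fewer settings. Direction changed in 0 of 87 values, but many of them could not change it. A change of floor cannot reverse a difference of the same probe set. A gene with 1 probe set keeps its value under the other probe set rules. For such values the unchanged direction is no test of robustness. No paired analysis was possible because each group has 1 array and the labels carry no replicate numbers. Nor could an array be left out, because that leaves no residual degrees of freedom.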
